A study of Mus musculus with 2 samples.

Results

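The insulin-like growth factor (IGF) system is described here by 10 genes, chosen by symbol from the platform annotation, of 19503 genes that the expression table names. They are the ligand genes Igf1 and Igf2, the receptor genes Igf1r, Insr and Igf2r, and the binding protein genes Igfbp2, Igfbp3, Igfbp4, Igfbp5 and Igfbp7. RNA came from pooled cerebella of Tg(Pcp2-L10a-Egfp) mice of postnatal day 7, which express, under the Purkinje cell promoter Pcp2, a GFP-tagged ribosomal protein, L10a. In TRAP, translating ribosome affinity purification, antibody-coated beads capture the tagged ribosomes with their mRNAs. RNA eluted from the beads made up the TRAP sample, and RNA not captured made up the unbound sample. A single whole-transcript Affymetrix array was used per fraction. Both samples carry the transgene, and no wild-type or mock purification was analysed here. How many animals were pooled, and whether 1 pool gave both RNAs, is not given in the sources used here.

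IGF1 and IGF2 are secreted peptides that signal through the IGF1 receptor, a tyrosine kinase of the same family as the insulin receptor. The IGF2 receptor carries IGF2 to lysosomes, and the binding proteins hold the ligands outside cells and limit or prolong their action. In the rodent brain, Igf2 is known as a product of choroid plexus and meninges. Igf1 is known to be made by several types of growing projection neuron, Purkinje cells among them, and to favour the survival of cerebellar neurons.

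Neither fraction was measured more than once. No test was run, no difference has an error, and a difference is described by its size, with 2-fold as the threshold. The unit is the log2 expression value as deposited, and each difference is the TRAP value minus the unbound value. A value below 7.08, the median of all probe set values on both arrays, is called below the floor here. The table holds no detection calls, so a fold with a value below the floor is uncertain. Levels of different genes come from different probes and are not compared with each other. Fewer cells of a type and less RNA per cell cannot be told apart in such samples. Nor can a difference in RNA level be told apart from a difference in capture with the tagged ribosomes.

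The purification can be read from the gene that drives the tag and from marker lists. Pcp2 was 2.52-fold higher in TRAP, at 12.98 in TRAP and 11.65 in unbound. Rpl10a, the gene of the tagged protein, read 12.67 in TRAP and 12.13 in unbound, and its 4 probe sets cannot separate the transgene from the endogenous gene. Of 15 Purkinje cell markers with a value, 14 were higher in TRAP and 7 passed 2-fold, and the list had a median difference of 0.99. With each array's median subtracted, 12 of the 15 passed 2-fold, against 7 after quantile normalization and 7 after removal of the loess trend. Markers of the other 10 cell types had negative medians, between -0.30 for mural cells and -1.99 for astrocytes and Bergmann glia. The mural median became 0.03 with the array medians subtracted. It was -0.31 after quantile normalization and -0.41 after removal of the loess trend.

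Of the 10 IGF system genes, 2 were higher in TRAP, neither of them by 2-fold, and 8 were higher in unbound, 5 of them by at least 2-fold. Among the 8, Igf2r changed sign under other scalings. Across the table, 11239 of 19503 genes were higher in TRAP and 8175 in unbound. The shares that passed 2-fold were 4.58% towards TRAP and 11.0% towards unbound. The median difference of the 10 genes was -1.17, and that of all genes was 0.099. The genes higher in TRAP were Igf1 and Igfbp3, and the genes at least 2-fold higher in unbound were Igf2, Insr, Igfbp2, Igfbp5 and Igfbp7. Of the 10 genes, 7 read above the floor on both arrays. Insr and Igfbp4 did so only on the unbound array, and Igf2r on neither.

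**Figure D1:**
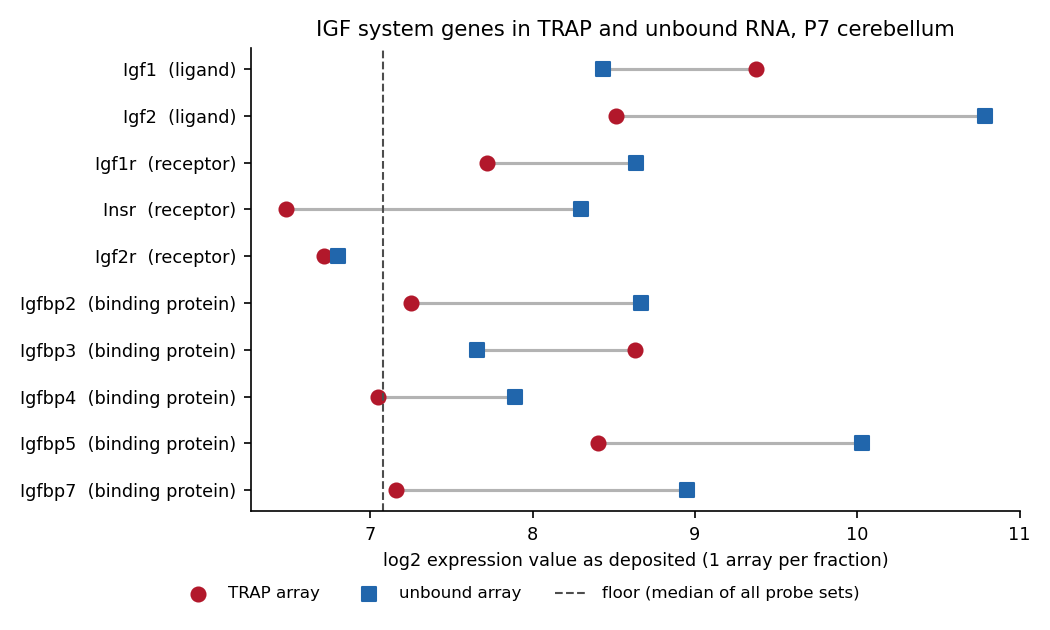
Log2 expression value as deposited (x axis) of the 10 IGF system genes (rows, by role) on the TRAP array (circles) and the unbound array (squares), with the floor at 7.08 as a dashed line. The TRAP value lies to the right of the unbound value for Igf1 and Igfbp3, and to the left of it for the other 8 genes.

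The promoters of Igf1 and Igfbp3, the pair higher in TRAP, are shown beside that of Igf2, which had the largest difference towards unbound. Each line gives the 250 bases before a RefSeq transcript start in GRCm38.p6, written in the direction of transcription. Capitals mark the 6-base matches to AGGTCA, the half-site of retinoid-related orphan and other nuclear receptors, and to GGGCGG, the GC box bound by Sp family factors. Igf2 has 4 such windows in the table, and the one farthest downstream is printed.
Igf1, chr10:87860861-87861110, plus strand: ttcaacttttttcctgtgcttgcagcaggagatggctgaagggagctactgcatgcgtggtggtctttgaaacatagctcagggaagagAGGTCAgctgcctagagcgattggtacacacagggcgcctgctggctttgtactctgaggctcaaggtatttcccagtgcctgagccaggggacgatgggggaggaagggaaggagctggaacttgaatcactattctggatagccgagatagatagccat
Igfbp3, chr11:7213924-7214173, minus strand: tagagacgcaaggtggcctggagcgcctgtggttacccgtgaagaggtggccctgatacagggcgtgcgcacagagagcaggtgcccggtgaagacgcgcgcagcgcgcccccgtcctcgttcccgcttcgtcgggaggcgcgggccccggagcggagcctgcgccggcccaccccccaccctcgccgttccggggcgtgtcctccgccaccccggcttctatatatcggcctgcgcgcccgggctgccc
Igf2, chr7:142657497-142657746, minus strand: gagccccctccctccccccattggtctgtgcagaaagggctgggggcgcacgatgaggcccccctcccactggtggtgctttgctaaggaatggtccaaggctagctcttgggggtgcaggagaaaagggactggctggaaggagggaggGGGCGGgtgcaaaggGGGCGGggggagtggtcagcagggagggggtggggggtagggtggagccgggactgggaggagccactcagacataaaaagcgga
On either strand, AGGTCA occurs in 14.0%, GGGCGG in 32.7% and TATAAA, the core of a TATA box, in 12.4% of all 32851 RefSeq windows of this length. The Igf1 window holds 1 AGGTCA, which begins 161 bases before the start. The Igfbp3 window holds none of the 3 motifs, and the printed Igf2 window holds 2 copies of GGGCGG, on the printed strand. None of these matches overlaps another. Counted by window, as those shares are, 4 of 13 windows of the IGF system genes had AGGTCA, 6 had GGGCGG and 1 had TATAAA. Of the 9 genes with a window in the table, 4 had AGGTCA in at least 1 window (Igf1, Igf1r, Igf2 and Igf2r), 5 had GGGCGG and 1, Igfbp4, had TATAAA. The nuclear receptor half-site was thus found in the window of 1 of the 2 genes higher in TRAP and in 3 genes that were not. In base composition, 52.8% of the Igf1 window, 73.2% of the Igfbp3 window and 66.0% of the printed Igf2 window was G or C, against a median of 52.4% over all windows. The arrays do not show which start was used, and a match of letters is not evidence that a factor binds there.

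The ligand genes lay on opposite sides. Igf1 read 9.37 in TRAP RNA, against 8.43 in unbound RNA, for a difference of 0.94 or 1.92-fold. Both values were well above the floor, and 5.29% of all genes had a larger difference towards TRAP. The difference was smaller than that of Pcp2 (1.34) and larger than that of 6 of the 15 Purkinje markers. Those 15 markers gave a summed linear signal of 72283 in TRAP and 35886 in unbound, and their part in the Igf1 result was not tested.

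Igf2 read 8.51 in TRAP RNA, against 10.79 in unbound RNA, for a difference of -2.28 or 4.84-fold. It was the only one of the 10 genes to pass 4-fold, a size that 2.37% of all genes reached towards unbound, and 1.38% of all genes had a lower difference than Igf2. With the array medians subtracted Igf2 differed by -1.94, short of 4-fold. It differed by -2.19 after quantile normalization and by -2.24 after removal of the loess trend, past 4-fold under each. The TRAP value was 1.43 above the floor. Relative to each other, Igf1 and Igf2 differed between the fractions by 3.22 on the log2 scale, a 9.29-fold shift in the ratio of Igf1 to Igf2 signal that no scaling of whole arrays by a constant can change.

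Markers of the tissues known to make Igf2 were mostly higher in unbound as well. For choroid plexus, 8 of 9 markers were higher in unbound and 4 of these passed 2-fold. The other 5 of the 9 were within 2-fold. Of the 9, 3 read above the floor in TRAP and 6 in unbound. The summed linear signal was 1579 in TRAP and 9265 in unbound. Ttr had the highest value of the list on both arrays and so weighed most in this sum. Ttr, which encodes the secreted transport protein transthyretin, read 9.46 in TRAP and 12.83 in unbound, and Kcnj13, a potassium channel gene, 5.78 in TRAP and 7.85 in unbound. For meningeal fibroblasts, 8 of 10 markers were higher in unbound, 4 of them at least 2-fold, with a summed signal of 955.1 in TRAP and 1867 in unbound. The other 6 were within 2-fold, and Pdgfra, among the 4, is also on the oligodendrocyte list. With the array medians subtracted, 4 of the 10 read higher in TRAP. After quantile normalization 3 did so, and after removal of the loess trend 3. Dcn, the matrix proteoglycan decorin, read 6.00 in TRAP and 8.46 in unbound. Of the 10 meningeal markers, 2 read above the floor in TRAP and 5 in unbound. No marker was listed at 0. The part of these cells in the Igf2 result was not tested.

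**Figure D2:**
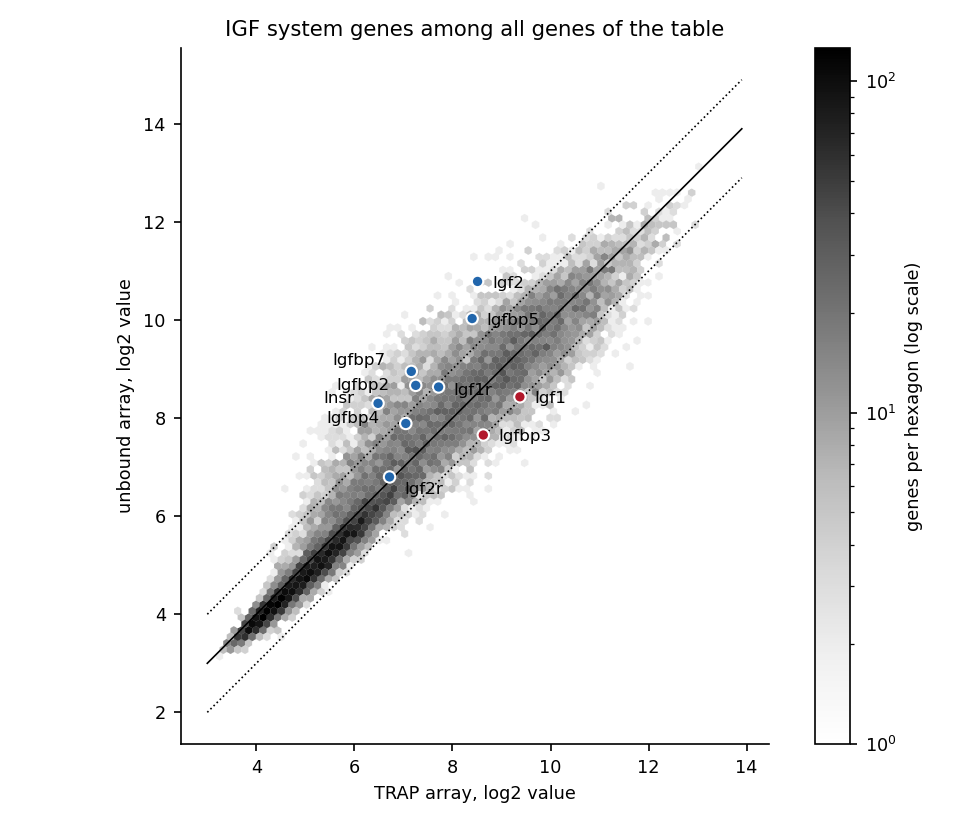
Log2 value on the TRAP array (x axis) against log2 value on the unbound array (y axis) for all 19503 genes, shaded by the number of genes per hexagon on a log scale, with the 10 IGF system genes marked (red where higher in TRAP, blue where higher in unbound). The solid line marks equal values and the dotted lines 2-fold, and of the 10 genes Igf2 lies farthest above the upper dotted line while Igf1 and Igfbp3 lie just inside the lower one.

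As deposited, the 3 receptor genes read lower in TRAP than in unbound, Igf2r with a sign that depended on the scaling. Insr, the insulin receptor gene, read 6.48 in TRAP and 8.30 in unbound as the mean of 2 probe sets, a difference of -1.82 or 3.53-fold. The first probe set read 6.62 in TRAP and 8.83 in unbound, and the second 6.34 in TRAP and 7.77 in unbound. Both probe sets were more than 2-fold higher in unbound, by 4.63-fold and 2.69-fold, and both TRAP values lay below the floor. Taken alone, the first probe set would also put Insr past 4-fold.

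Igf1r, the receptor through which both ligands act, read 7.72 in TRAP and 8.63 in unbound. Its difference of -0.92, or 1.89-fold, fell short of the threshold, and both values were above the floor. Of all genes, 12.3% had a lower difference. The Igf1r difference was thus smaller in size than that of Insr, by 0.90 on the log2 scale. Igf2r, the clearance receptor of IGF2, read 6.72 in TRAP and 6.80 in unbound. That difference of -0.08 was close to 0, changed sign under other scalings (0.25 with the array medians subtracted and 0.18 after quantile normalization), and both values were below the floor.

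The binding protein genes also lay on both sides, with 1 of 5 higher in TRAP and 3 of 5 at least 2-fold higher in unbound. Of all genes, 11.0% passed 2-fold towards unbound. Igfbp3, the main carrier of IGFs in serum, read 8.63 in TRAP and 7.66 in unbound, a difference of 0.97 or 1.96-fold. Both values were above the floor, 4.96% of all genes had a larger difference towards TRAP, and 6 of 15 Purkinje markers had a smaller one. Igf1 and Igfbp3 were therefore the members nearest to the 2-fold line from inside, with Igf1r at 1.89-fold on the other side.

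Igfbp7, which binds IGFs weakly and is known as a gene of blood vessels, read 7.16 in TRAP and 8.95 in unbound, a difference of -1.79 or 3.46-fold. Igfbp5, a matrix-associated binding protein, read 8.40 in TRAP and 10.03 in unbound, 3.09-fold apart. Igfbp2, a binding protein abundant in cerebrospinal fluid, read 7.25 in TRAP and 8.67 in unbound, 2.67-fold apart. The TRAP values of Igfbp7 and Igfbp2 stood only 0.08 and 0.17 above the floor, while that of Igfbp5 stood 1.32 above it. Igfbp4, generally an inhibitor of IGF action, read 7.05 in TRAP and 7.89 in unbound. Its difference of -0.84, or 1.79-fold, was below the threshold, and its TRAP value lay just below the floor. Relative to Igfbp3, Igfbp5 shifted 6.08-fold and Igfbp7 6.80-fold towards unbound.

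Vascular markers were mostly higher in unbound as deposited. Of 9 endothelial markers, 8 were higher in unbound, 2 of them at least 2-fold, and 1 of the 9 was above the floor on either array. With the array medians subtracted, 0 of the 9 passed 2-fold, against 1 after quantile normalization and 2 after removal of the loess trend. Their summed linear signal was 611.6 in TRAP and 946.3 in unbound. Cdh5, the cadherin of endothelial junctions, read 5.60 in TRAP and 6.88 in unbound. All 9 mural markers read lower in TRAP as deposited and 3 passed 2-fold, but with the array medians subtracted 5 of the 9 read higher in TRAP. After quantile normalization 1 did so, and after removal of the loess trend 0. The mural sum was 719.6 in TRAP and 1713 in unbound. Acta2, smooth muscle actin, read 6.49 in TRAP and 8.54 in unbound, and Rgs5, a pericyte gene, 7.50 in TRAP and 9.36 in unbound. The part of vessel cells in the Igfbp7 result was not tested.

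Markers of granule cells, interneurons, astrocytes with Bergmann glia and oligodendrocytes had medians between -1.27 and -1.99, and microglia markers a median of -0.48. The summed signal of 10 granule neuron markers was 9391 in TRAP and 28797 in unbound, with 9 of the 10 at least 2-fold higher in unbound. For granule progenitors, 5 of 10 markers passed 2-fold towards unbound, led by the proliferation genes Top2a and Mki67 at 6.13-fold and 5.26-fold. Of 12 astrocyte and Bergmann glia markers, 2 read higher in TRAP. These include Aldoc, the marker with the highest TRAP value, which weighed most in the TRAP sum. Aldoc read 12.97 in TRAP and 12.03 in unbound. Of the 12, 9 reached 2-fold towards unbound, and the sum was 16472 in TRAP and 25091 in unbound. Among 9 oligodendrocyte markers 8 did so, and the sum was 1416 in TRAP and 5386 in unbound. Of 5 interneuron markers 3 did so, with Tfap2b and Kit at 9.29-fold and 6.40-fold, and the TRAP value of Kit was below the floor. Of 10 microglia markers 3 did so, with Fcer1g and C1qb at 3.07-fold and 3.02-fold. In TRAP 0 of these 10 read above the floor, and in unbound 3. With the array medians subtracted, the microglia median was -0.15 and 4 of the 10 read higher in TRAP. The median was -0.48 after quantile normalization and -0.58 after removal of the loess trend. The sums were 809.5 in TRAP and 3435 in unbound for interneurons, and 651.9 in TRAP and 1123 in unbound for microglia. These lists were shifted in the same direction as Igf2, Insr, Igfbp2, Igfbp5 and Igfbp7, and their part in those results was not tested.

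Other genes that bear on IGF availability included members at both ends. The list holds 15 genes, 13 of which have a value, and their median difference of 0.12 lay next to the 0.099 of all genes. Past 2-fold lay 2 genes towards TRAP and 1 towards unbound, beside 4.58% and 11.0% of all genes. Htra1, a secreted protease that cleaves IGF binding proteins, read 8.61 in TRAP and 7.09 in unbound, 2.86-fold apart. The unbound value of Htra1 was barely above the floor. Igfbp6, a binding protein with a preference for IGF2, read 8.27 in TRAP and 6.76 in unbound, 2.85-fold apart, and its unbound value was below the floor. Igfbpl1, the gene of an IGF binding protein-like protein, read 7.04 in TRAP and 8.78 in unbound, 3.35-fold apart, with the TRAP value below the floor. Htra1, Igfbp6 and Igfbpl1 stayed past 2-fold under all 4 scalings. Insrr, the gene of an insulin receptor-related receptor, differed by 0.50, Igf2bp3, an mRNA-binding protein gene, by -0.55 and the stanniocalcin gene Stc1 by -0.38. All values of Insrr, Igf2bp3 and Stc1 lay below the floor.

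Receptor adaptors included genes at both ends too. Of 14 genes, 1 passed 2-fold towards TRAP and 4 towards unbound, beside 4.58% and 11.0% of all genes. The median difference was -0.17, or 0.16 with the array medians subtracted. Grb10 and Grb14 encode related adaptors that bind activated insulin and IGF1 receptors and damp their signalling, and they lay at opposite ends of the list. Grb14 read 10.18 in TRAP and 8.75 in unbound, 2.68-fold apart. Grb10 read 6.96 in TRAP and 9.03 in unbound, 4.19-fold apart, with the TRAP value below the floor. Gab1, a docking protein, read 9.25 in TRAP and 10.91 in unbound, and Sos1, which activates RAS, read 8.40 in TRAP and 9.91 in unbound. These were 3.16-fold and 2.85-fold differences. The adaptor genes Sh2b1 and Grb2 differed by 0.75 and 0.26. All 4 named genes past 2-fold stayed past it under the other scalings.

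The PI3K, AKT and mTOR branch, which carries the growth and survival signal, had genes past 2-fold in both directions. Of 30 genes on the list 27 have a value, and of these 21 were within 2-fold, 1 passed that size towards TRAP and 5 towards unbound. Among all genes, 16459 of 19503 were within 2-fold. With the array medians subtracted, 2 genes of the branch passed 2-fold towards TRAP and 2 towards unbound. After quantile normalization, and after removal of the loess trend, the counts stayed at 1 and 5. The median was -0.03 and became positive under each of the other scalings. Foxo1, a transcription factor that AKT holds out of the nucleus, read 7.25 in TRAP and 8.86 in unbound, 3.07-fold apart. Inppl1, a phosphatase that removes the lipid signal of PI3K, was 2.63-fold and the kinase gene Akt2 2.31-fold higher in unbound. With the array medians subtracted, Akt2 differed by -0.88, short of 2-fold. It stayed past 2-fold after quantile normalization (-1.20) and after removal of the loess trend (-1.25). Bad, a pro-apoptotic protein that AKT inactivates, read 8.63 in TRAP and 7.43 in unbound, 2.30-fold apart. Rheb, the GTPase that activates mTOR, read 12.04 in TRAP and 11.20 in unbound, and the PI3K catalytic gene Pik3cb 9.40 in TRAP and 8.85 in unbound, which were 1.79-fold and 1.46-fold differences. Rheb differed by 1.17, past 2-fold, with the array medians subtracted. It stayed short of 2-fold after quantile normalization (0.77) and after removal of the loess trend (0.72).

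Of 9 RAS and MAPK genes on the list, 4 have a value. Nras, a RAS gene, read 9.00 in TRAP and 10.19 in unbound, 2.28-fold apart. With the array medians subtracted it differed by -0.86, short of 2-fold, and the list then had 2 genes past 2-fold towards TRAP (Map2k1 at 1.33 and Map2k2 at 1.02) and 0 towards unbound. After quantile normalization Nras differed by -1.09, Map2k1 by 1.01 and Map2k2 by 0.63. After removal of the loess trend Nras differed by -1.15, Map2k1 by 0.98 and Map2k2 by 0.61. Map2k1, encoding the kinase MEK1, read 10.73 in TRAP and 9.73 in unbound, a difference of 1.00 that was just under 2-fold as deposited. The kinase genes Map2k2 and Braf differed by 0.69 and -0.68.

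**Figure D3:**
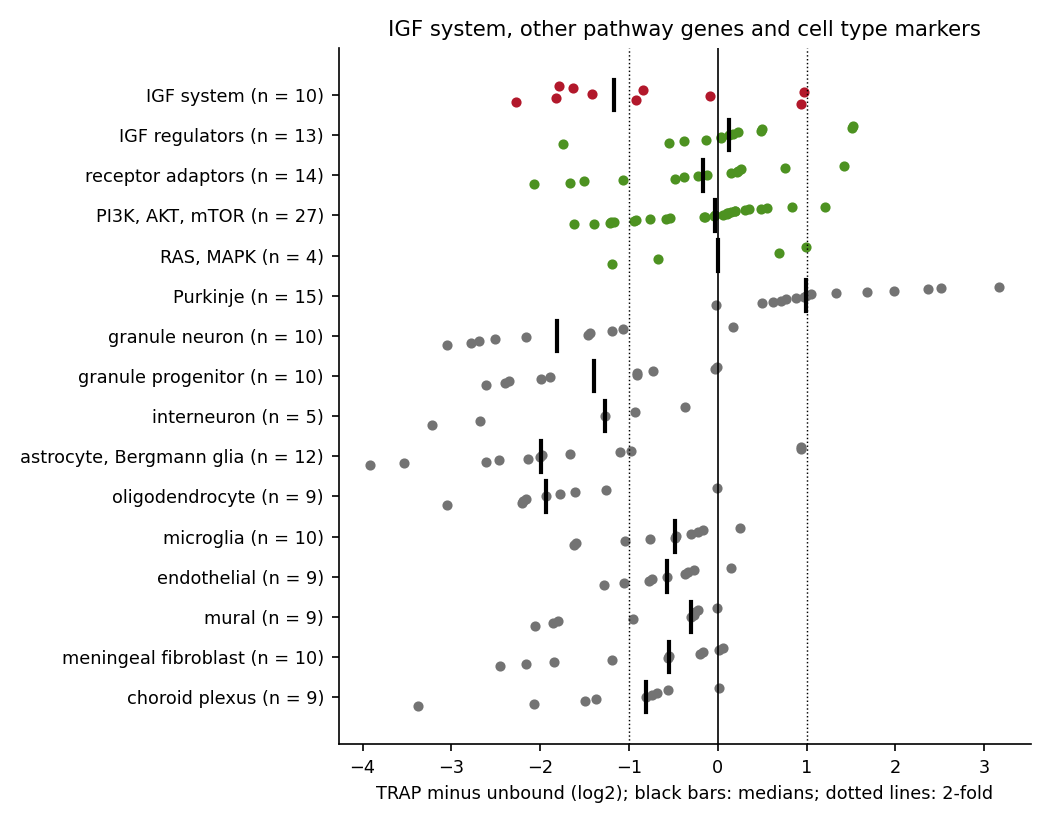
TRAP minus unbound difference on the log2 scale (x axis) for each gene (points) of the IGF system (red), of 4 lists of other pathway genes (green) and of 11 cell type marker lists (grey), with medians as black bars and 2-fold as dotted lines. The IGF system has a median of -1.17 with Igf1 and Igfbp3 near the upper dotted line, the Purkinje markers have a median of 0.99, and the pathway lists have medians between -0.17 and 0.12.

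The scaling of the arrays decided whether Igf1 and Igfbp3 counted as 2-fold higher in TRAP. The TRAP array had the lower median over all probe sets, 6.92 in TRAP and 7.25 in unbound. Subtracting the medians gave differences of 1.27 for Igf1 and 1.30 for Igfbp3, quantile normalization 1.16 and 1.27, and removal of the loess trend on the mean level 1.04 and 1.16. Both genes then passed 2-fold, as did 10.1%, 6.67% and 5.31% of all genes towards TRAP under those scalings. Subtracting the medians also raised the median difference of all genes to 0.43, against 0.065 after quantile normalization and 0.010 after removal of the trend. Igf2, Insr, Igfbp2, Igfbp5 and Igfbp7 stayed past 2-fold towards unbound under each of these scalings, and 6.80%, 8.60% and 10.0% of all genes did so. With the brightest probe set per gene, 0 of the 10 genes passed 2-fold towards TRAP and 5 towards unbound, beside 4.61% and 11.1% of all genes. Among genes above the floor on at least 1 array, where Igf2r drops out, the counts were 0 and 5 of 9, beside 8.11% and 18.6% of genes. With the floor applied to the mean of both arrays they were again 0 and 5 of 9, beside 8.10% and 16.8%. At 1.5-fold, 2 of the 10 genes were higher in TRAP and 7 in unbound, beside 12.5% and 19.5% of all genes. At 4-fold, none was higher in TRAP and Igf2 was higher in unbound, beside 0.400% and 2.37%.

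**Figure D4:**
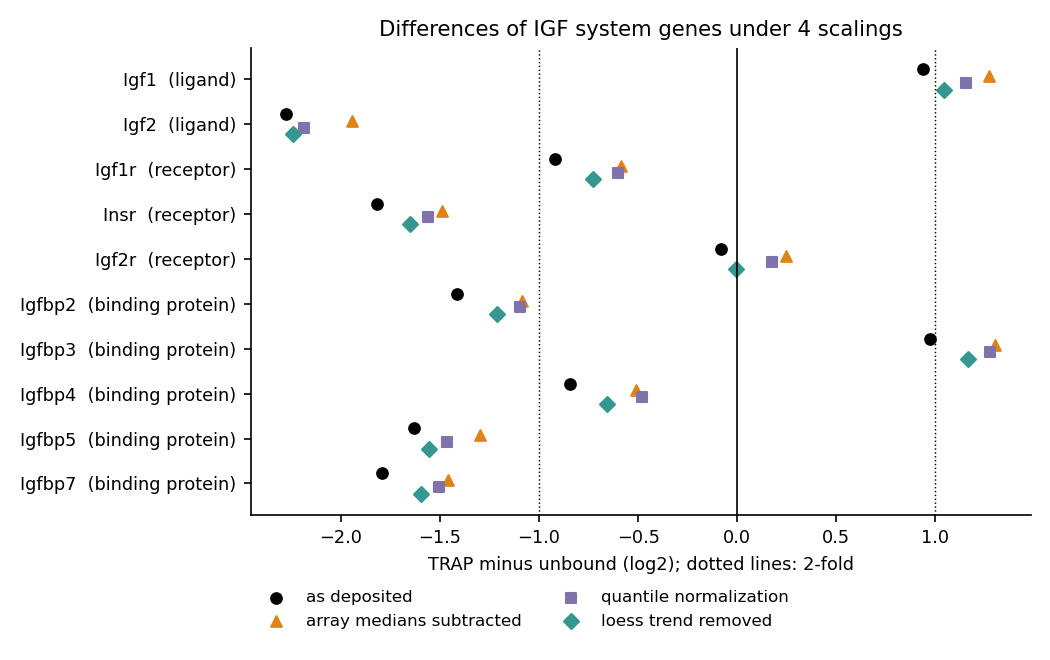
TRAP minus unbound difference on the log2 scale (x axis) of the 10 IGF system genes (rows) as deposited (circles), with the array medians subtracted (triangles), after quantile normalization (squares) and after removal of a loess trend (diamonds), with 2-fold as dotted lines. Igf1 and Igfbp3 cross the upper dotted line under the 3 other scalings, Igf2r lies on both sides of 0, and 5 genes stay beyond the lower dotted line throughout.

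The genes closest to a member on both arrays were found by Euclidean distance between their pairs of log2 values, over 2 arrays only. Nearest to Igf1 among protein-coding genes were Cdc34, Stx8 and Lats2, at distances of 0.021 to 0.031. Nearest to Igfbp3 were Pycrl, Mettl5 and Ttll11, at 0.032 to 0.042. Nearest to Igf2 were Zbtb20, Map3k1 and Rasa3, at 0.020 to 0.068. With 2 arrays such likeness is common among so many genes and describes these values alone.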

How the data were processed

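The authors deposited 1 table of log2 expression values per probe set, produced by Affymetrix Power Tools according to the submitters' processing notes. The sources used here do not give its version, background correction, normalization, summary method, log base or genome build. The log2 scale was inferred from the range of the deposited values. Of 22097 probe sets, 20999 name 1 gene in the platform annotation, 91 name several genes (not used), and 1007 have no name in that annotation table. Symbols were updated by Entrez identifier against RefSeq (GRCm38.p6), which matched 20959, and probe sets were averaged per gene. The 10 IGF system genes have 11 probe sets. Missing list genes were not analysed here.

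With 1 array per fraction no test was run, and the array number limits the precision. Members and gene lists were chosen with earlier results of these data known. Besides all 10 members, Pcp2, Rpl10a and Aldoc, the text names the 3 highest and 3 lowest genes of each pathway list. It also names up to 2 genes per marker list by size, and the 3 nearest genes of 3 members. Alternatives were 3 other scalings (loess span 0.3, statsmodels 0.14.6), the brightest probe set, filters at the floor and thresholds of 1.5-fold and 4-fold. Scripts were tested on simulated data. Promoter windows are RefSeq's and were cut at the transcript start.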

Additional observations from a re-analysis of the deposited data

How the results depend on the processing

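With 1 array per fraction, no spread between replicates exists to judge these shifts, and no paired analysis was possible because the fractions share fewer than 2 replicate numbers. The count of IGF system genes at least 2-fold higher in TRAP was 0 as deposited and 2 under each other scaling or at 1.5-fold. That towards unbound was 5 under all scalings, with the brightest probe sets and with both filters, 7 at 1.5-fold and 1 at 4-fold. The median of the 10 genes was -0.84 with array medians subtracted, -0.85 after quantile normalization and -0.97 with the loess trend removed, which are all short of 2-fold. Medians of the pathway lists changed sign under some alternatives. Receptor adaptors gave 0.16 with medians subtracted. The PI3K, AKT and mTOR list gave 0.30 with medians subtracted, 0.13 after quantile normalization, 0.0068 without the trend and 0.014 under both filters. RAS and MAPK genes gave -0.023 after quantile normalization and -0.048 without the trend, and IGF regulators gave -0.038 without the trend, 0.45 with medians subtracted and 0.77 over the 4 genes left by either filter. The cause of these sign changes was not tested. Of single members, Igf2r alone changed sign.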

Other observations

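Transcripts that overlap or adjoin members were read after the values had been seen. Mir483, a microRNA gene within Igf2, read 7.76 in TRAP and 6.93 in unbound, a difference of 0.83, opposite in sign to the -2.28 of Igf2, and its unbound value was below the floor. Airn, the long noncoding RNA antisense to Igf2r, read 7.33 in TRAP and 7.65 in unbound. Igf1os, antisense to Igf1, read 4.88 in TRAP and 4.56 in unbound, and Ins2, the insulin gene next to Igf2, 5.66 in TRAP and 5.45 in unbound, all below the floor.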
